A study of Mus musculus with 4 samples.

Results

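The conjugation enzymes examined here are the UDP-glucuronosyltransferases (UGT), the cytosolic sulfotransferases (SULT) and the carboxylesterases of mouse liver. Members were the protein-coding genes of the GENCODE M1 annotation (mm9) whose symbol starts with Ugt1, Ugt2 or Ugt3, or with Sult or Ces and a digit. This rule gave 58 of 22380 protein-coding gene entries, made up of 20 UGT, 17 SULT and 21 carboxylesterase entries. Ces5a is annotated as 2 separate entries, so the 58 entries carry 57 symbols. SHP (NR0B2), a nuclear receptor that cannot bind DNA by itself, was located on liver chromatin by ChIP-seq in wild-type male C57BL/6 mice aged 8 to 12 weeks. All mice were fasted for 12 h, and received either vehicle or 1 mg/kg of FGF19, a gut hormone released after feeding, through the tail vein. Livers were taken 2 h later. Immunoprecipitated DNA from 3 mice per group was pooled into 1 ChIP library with its own input, so no difference between the groups has a replicate error or a test. The peak lists of the authors hold 1508 peaks with vehicle and 3155 with FGF19, from 15473647 and 13444078 ChIP tags kept. A gene was said to have a peak when a peak interval lay within 5 kb of the gene body.

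UGTs link glucuronic acid to drugs, bilirubin, steroids and bile acids, and SULTs link sulfate to drugs, steroids and bile acids. Both reactions make these molecules more soluble and easier to excrete. Carboxylesterases split ester and amide bonds in drugs and lipids, and often expose the group that is conjugated next. Most of the genes stand in clusters of close copies. In the Ugt1a locus each gene has its own first exon and all share the remaining exons, whereas the Ugt2 and Ces genes are separate copies side by side. The Sult genes are spread over several chromosomes, some in clusters and others, such as Sult6b1, alone.

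SHP peaks were found at 2 of the 58 members with vehicle, which is 3.45% (Wilson 95% interval 0.951 to 11.7), where 7.93% of all protein-coding genes had a peak. With FGF19 they were found at 15 of the 58 members, which is 25.9% (16.3 to 38.4), where 16.3% of all protein-coding genes had a peak. The intervals cover counting error only, and neighbouring members are not independent. Both members with a vehicle peak, Ugt2b1 and Ces3a, also had an FGF19 peak, 13 members had a peak in the FGF19 list only, which is 22.4%, and 43 had none in either list, which is 74.1%. Over all protein-coding genes, 4.31% had a peak in both lists, 12.0% in the FGF19 list only and 80.1% in neither. Without the Ugt1a genes, 4 of 49 members had a peak in the FGF19 list only, which is 8.16%. The FGF19 count rests on 1 peak in the exon that the 9 Ugt1a genes share. With the Ugt1a locus counted once, 7 of 50 loci had an FGF19 peak, and without Ugt1a the share was 12.2% of 49 genes (5.73 to 24.2), lower than the share of all genes. The shares were therefore below the genome share with vehicle, and above or below it with FGF19 depending on how the Ugt1a genes are counted. Both intervals of the lower shares, 0.951 to 11.7 and 5.73 to 24.2, include the genome share, so these shares cannot be told apart from it. Members were also longer than other genes, with a median of 23173 bp against 15420.5 bp over all genes, and the effect of length was not tested. In distinct peaks, the members had 3 with vehicle and 10 with FGF19.

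**Figure D1:**
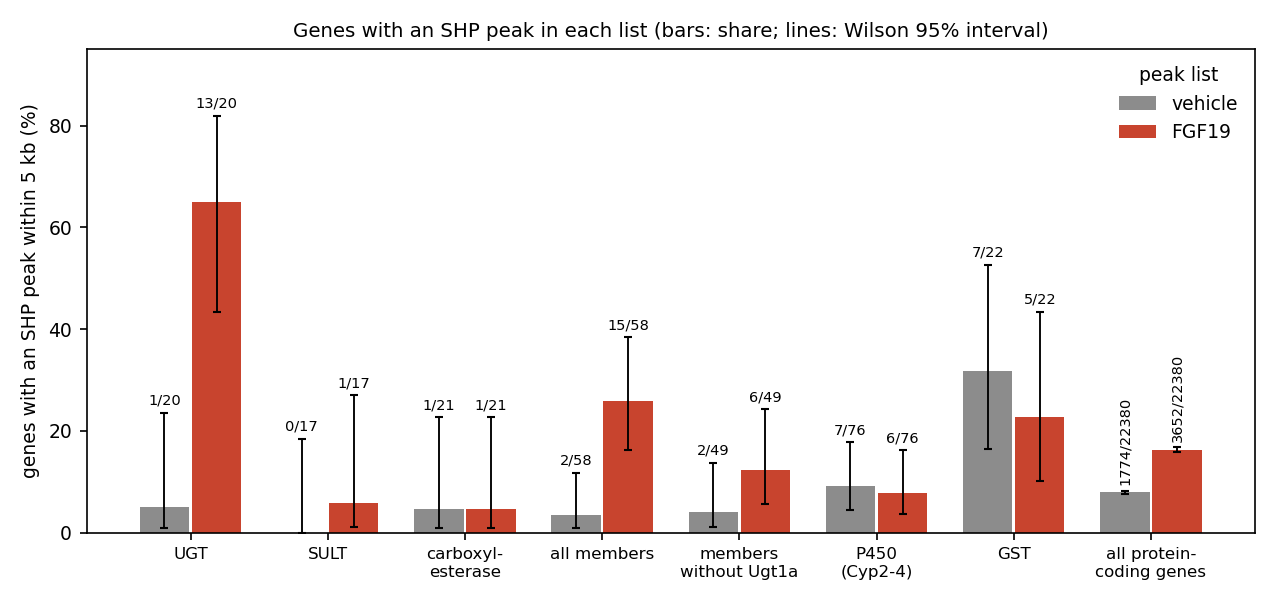
Share of genes with an SHP peak within 5 kb of the gene body, in percent, for each family, for P450 and glutathione S-transferase (GST) genes and for all protein-coding genes. Bars are the vehicle (grey) and FGF19 (red) lists, lines are Wilson 95% intervals, and numbers give genes with a peak over genes in the set. The UGT bar of 13 of 20 genes with FGF19 includes the 9 Ugt1a genes that share 1 peak, and 12.2% of members had an FGF19 peak without them.

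With vehicle each family had a peak at no more than 1 gene, and larger differences between families were seen with FGF19 only. The shares of all protein-coding genes were 7.93% with vehicle and 16.3% with FGF19. Among UGT genes, 1 of 20 had a peak with vehicle and 13 of 20 with FGF19. Of these, the Ugt1 genes had 0 of 9 with vehicle and 9 of 9 with FGF19, the Ugt2 genes 1 of 9 and 4 of 9, and the Ugt3 genes 0 of 2 in both lists. The 9 Ugt1 genes share a single FGF19 peak, so most of the UGT count with FGF19 rests on it. Among carboxylesterases, 1 of 21 had a peak in each list, and it was Ces3a in both. All 8 Ces1 and all 8 Ces2 genes, among them Ces1d and Ces2a, had no peak in either list. Among sulfotransferases, 0 of 17 had a peak with vehicle and 1 of 17 with FGF19. That peak had its summit in the first exon of Eif2ak2, outside the sulfotransferase gene. The 7 Sult2 genes and the 6 Sult1 genes, among them Sult1a1 and Sult2a1, had none. A gene without a peak may still hold signal too weak to pass the q-value cutoff of 0.05, and such signal was not examined. Whether tags can be placed uniquely at the genes without a peak, many of them close copies, was not examined either.

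The Ugt1a locus, on the plus strand of chromosome 1, encodes among others UGT1A1, the enzyme that conjugates bilirubin. Its FGF19 peak ran from 90114788 to 90115482, had its summit at 90115250, and was 695 bp long. The summit lay in an exon of all 9 Ugt1a genes. In the longest-coding transcript of Ugt1a1 this was exon 5 of 5, and the summit was 322 bp before the gene end and 6716 bp downstream of the gene start. The peak began 86 bp inside this exon and ended 90 bp before its end, and of its bases 209 were coding and 486 untranslated. No peak of either list lay at any of the alternative first exons. The pileup at the summit, the number of extended ChIP tags stacked there, was 41, the highest of all member peaks. Its fold enrichment over the local input background was only 3.53, below the list median of 4.05. The background worked out from pileup and fold enrichment was 10.9 tags, higher than or equal to that of 98.0% of FGF19 peaks, against a list median of 5.25. The start of a processed transcript, RP23-324B17.1, is annotated 91 bp from the summit, so the peak also counts as lying within 1 kb of a TSS.

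The Ugt2 genes form a cluster on chromosome 5 in which 4 of the 9 genes had an FGF19 peak. Ugt2b1 was the only one of them with vehicle peaks, and it had 2 peaks in each list. Ugt2b1 encodes a transferase of the family that conjugates steroids and bile acids, and lies on the minus strand from 87345663 to 87355555. Over its last exon, the vehicle peak ran from 87345752 to 87346816 with a pileup of 34 and a fold enrichment of 5.99. The FGF19 peak there ran from 87346158 to 87346792 with a pileup of 26 and a fold enrichment of 4.78. The vehicle peak covered 86.7% of the 1228 bp exon and the FGF19 peak 51.7%. Both summits were in the untranslated part, 945 bp and 873 bp before the gene end, and 72 bp apart.

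Over the first exon of Ugt2b1, the vehicle peak ran from 87355186 to 87355432 with a pileup of 30 and a fold enrichment of 3.18. The FGF19 peak ran from 87355009 to 87355511 with a pileup of 27 and a fold enrichment of 3.47. The summits lay 255 bp and 368 bp downstream of the TSS, inside the coding sequence. All bases of both peaks were coding, and neither peak reached the TSS, which the FGF19 peak missed by 44 bp. The local background was 8.76 tags with vehicle and 7.06 with FGF19, above the list medians of 4.84 and 5.25. The coding bases around both summits, read from the mm9 genome on the coding strand of chr5:87355127-87355360, are given because Ugt2b1 is 1 of 2 members with a summit near its own start. Capitals mark 5 bases on each side of the vehicle summit, which comes first, and of the FGF19 summit.
Ugt2b1: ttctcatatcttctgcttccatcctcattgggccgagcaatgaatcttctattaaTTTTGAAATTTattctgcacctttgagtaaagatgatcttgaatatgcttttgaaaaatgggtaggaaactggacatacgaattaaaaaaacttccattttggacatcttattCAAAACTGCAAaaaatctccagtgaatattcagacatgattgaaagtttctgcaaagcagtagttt

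Ugt2a3, on the minus strand from 87753997 to 87766220, had a single FGF19 peak, also over its first exon. It ran from 87765592 to 87766183, and its summit was in the coding sequence 143 bp downstream of the TSS. All 592 bases of the peak were coding, and they made up 78.6% of the 753 bp exon. The pileup was 23 and the fold enrichment 4.09, close to the list medians of 24 and 4.05. Ugt2a3 and Ugt2b1 were the only members with a summit within 1 kb of their own TSS, and at neither did a summit lie upstream of it. The coding bases of chr5:87766017-87766137 around the summit follow, on the coding strand, with 5 bases on each side of the summit in capitals.
Ugt2a3: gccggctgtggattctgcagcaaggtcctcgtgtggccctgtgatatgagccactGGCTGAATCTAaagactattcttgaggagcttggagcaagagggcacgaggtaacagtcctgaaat

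Ugt2b34 and Ugt2b5 had FGF19 peaks in the last exon and none at the first. Ugt2b34 lies on the minus strand from 87318792 to 87335962 and had 2 peaks in its last exon. The first ran from 87319633 to 87320391 with a pileup of 15 and a fold enrichment of 4.20, and the second from 87319000 to 87319267 with a pileup of 17 and a fold enrichment of 4.38. The second lay entirely in the untranslated part of the exon. Ugt2b5, from 87553981 to 87569365 on the minus strand, had a peak from 87554201 to 87554469 with a pileup of 18 and a fold enrichment of 4.64. These 3 peaks had low pileups and low backgrounds of 2.81 to 3.11 tags, against list medians of 24 and 5.25. The summits in coding sequence lay at much the same place in both genes, at base 1536 of 1596 coding bases in Ugt2b34 and at base 1557 of 1623 in Ugt2b5. Both stretches are shown for that reason, on the coding strand of chr5:87320230-87320350 and chr5:87554247-87554367, with 5 bases on each side of the summit in capitals.
Ugt2b34: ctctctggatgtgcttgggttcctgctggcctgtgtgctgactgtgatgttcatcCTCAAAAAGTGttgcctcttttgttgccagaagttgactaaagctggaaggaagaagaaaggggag
Ugt2b5: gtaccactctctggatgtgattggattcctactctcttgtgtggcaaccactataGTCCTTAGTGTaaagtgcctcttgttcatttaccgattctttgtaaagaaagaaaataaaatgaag

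The remaining 5 Ugt2 genes, and Sult1b1, Sult1d1 and Sult1e1 beside them on chromosome 5, had no peak in either list. Because the genes are close copies, tags could have been placed at the wrong one. A tag of 100 bp from the Ugt2b5 peak and its 100 bp flanks had no other place in the genome with at most 2 mismatches at 89.5% of its 370 possible starts. The closest other stretch, 92.3% identical over 468 bp, was in Ugt2b37, which had no peak. For the Ugt2b1 and Ugt2b34 peaks the unique share was 95.1% or more, and it was 100% at the Ugt1a and Ugt2a3 peaks. The handling of tags with several places is not given in the sources used here.

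**Figure D2:**
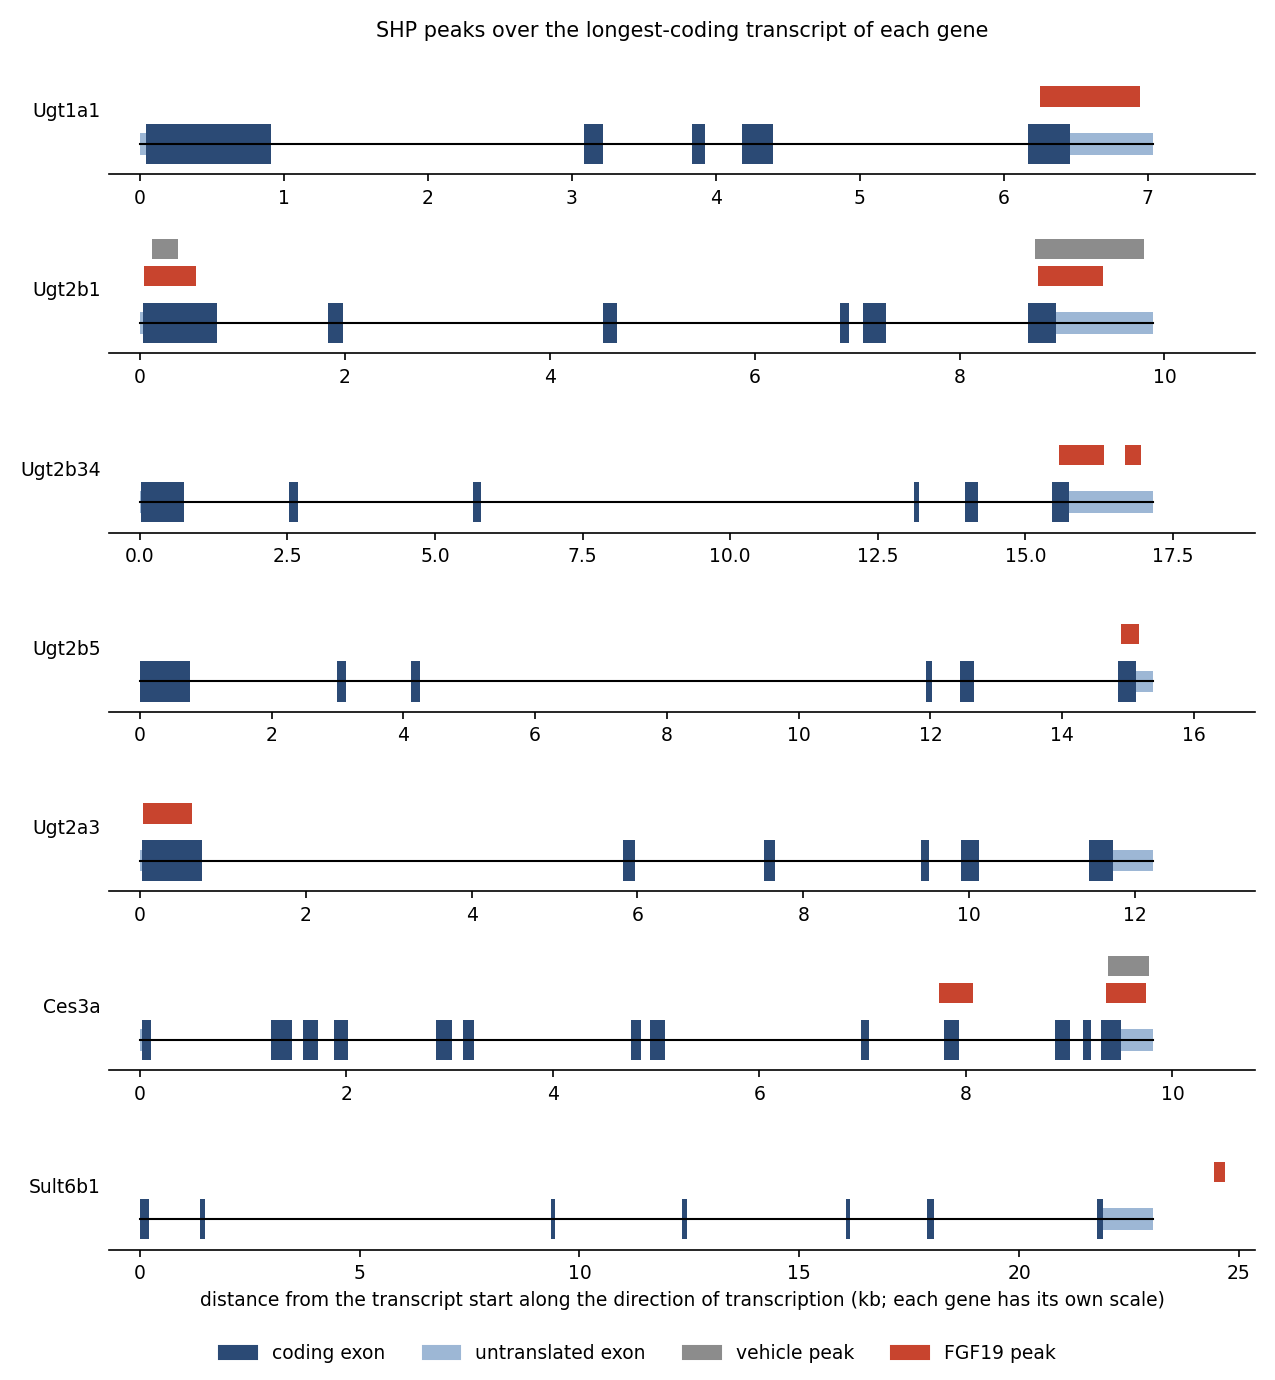
SHP peaks over the longest-coding transcript of each member with a peak, with the distance from the transcript start in kb on a separate scale for each gene. Dark boxes are coding exons, light boxes untranslated exon, and the bars above are vehicle (grey) and FGF19 (red) peaks. The peaks sit over the first exon of Ugt2b1 and Ugt2a3, over the last exon of Ugt1a1, Ugt2b1, Ugt2b34, Ugt2b5 and Ces3a, over exon 10 of Ces3a, and 1431 bp past the end of Sult6b1 at its summit.

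Ces3a, a liver carboxylesterase of the endoplasmic reticulum, lies on the plus strand of chromosome 8 from 107572499 to 107582314. It had 1 peak with vehicle and 2 with FGF19. Over its last exon, exon 13 of 13, the vehicle peak ran from 107581877 to 107582273 with a pileup of 33 and a fold enrichment of 5.88. The FGF19 peak there ran from 107581856 to 107582245 with a pileup of 36 and a fold enrichment of 4.64. The pileup was thus higher and the fold enrichment lower with FGF19, and the background was 4.79 tags with vehicle and 6.97 with FGF19. The other FGF19 peak ran from 107580241 to 107580566, with a pileup of 21 and a fold enrichment of 6.04, the highest of the member peaks and higher than or equal to that of 93.1% of the FGF19 list. Its summit was in exon 10, and this peak, unlike the other peaks inside member genes, also covered intron, with 148 coding and 178 intron bases. The exon is 148 bp long and was covered in full. The coding bases of chr8:107580303-107580423 around this summit are given because it is the most enriched member site.
Ces3a: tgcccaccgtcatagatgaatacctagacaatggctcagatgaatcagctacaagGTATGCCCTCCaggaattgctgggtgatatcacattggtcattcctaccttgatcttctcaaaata

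The tags under the peaks over the last exon of Ces3a cannot all be assigned to Ces3a alone. Ces3b, its neighbour copy, had no peak, but its sequence was 96.9% identical to the vehicle peak with its flanks over 588 bp and 97.3% identical to the FGF19 peak over 590 bp. Of the possible 100 bp tags, 63.1% had no other place with at most 2 mismatches at the vehicle peak, and 58.2% at the FGF19 peak. The coding part of the last exon differed between Ces3a and Ces3b at 2 of 193 bases, an identity of 99.0%. It holds only 124 of the 397 bases of the vehicle peak and 145 of the 390 bases of the FGF19 peak. Neither summit lies in it, and whether the summits lie in unique sequence was not examined. The coding parts of both genes are shown on the coding strand, from chr8:107581808-107582000 for Ces3a and chr8:107616967-107617159 for Ces3b, with the differing bases in capitals.
Ces3a: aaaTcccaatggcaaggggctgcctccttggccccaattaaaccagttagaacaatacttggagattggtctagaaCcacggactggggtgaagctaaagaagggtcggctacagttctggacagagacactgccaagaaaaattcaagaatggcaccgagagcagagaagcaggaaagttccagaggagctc
Ces3b: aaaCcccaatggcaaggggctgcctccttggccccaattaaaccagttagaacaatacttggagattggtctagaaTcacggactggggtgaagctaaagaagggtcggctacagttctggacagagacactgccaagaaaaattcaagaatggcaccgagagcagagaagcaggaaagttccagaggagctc
The exon 10 peak was unique at 100% of its tag starts, with Ces3b only 83.1% identical.

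The only peak assigned to a sulfotransferase lay outside the gene. It ran from 79281643 to 79281905 on chromosome 17 in the FGF19 list, with a pileup of 19 and a fold enrichment of 4.32. Sult6b1, on the minus strand from 79283278 to 79306332, ends 1373 bp away from it. The summit was 41 bp downstream of a TSS of Eif2ak2, which encodes the RNA-activated kinase PKR, and in its first exon. By nearest TSS the peak therefore belongs to Eif2ak2, and no sulfotransferase had a peak of its own. It also stood apart in sequence, with 54.8% GC where the other FGF19 member peaks had at most 48.5%.

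At the 3 regions common to both lists the change with FGF19 went both ways. The log2 ratio of fold enrichment, FGF19 over vehicle, was -0.33 at the last exon of Ugt2b1, 0.13 at its first exon and -0.34 at the last exon of Ces3a. Over all 678 common regions the median was -0.016, with quartiles of -0.36 and 0.32, so all 3 lay between the quartiles by this measure. The log2 ratios of pileup were -0.39, -0.15 and 0.13 in the same order, against quartiles of -0.23 and 0.23. Scaled to the ChIP tags kept, they were -0.18, 0.051 and 0.33, against a median of 0.20 and quartiles of -0.024 and 0.43 over all common regions. By pileup the last exon of Ugt2b1 lay below the lower quartile. Scaling shifts all regions by the same amount, so it cannot change their order. The direction was the same in each measure at the last exon of Ugt2b1 only, and it depended on the measure at the other regions. With 1 library per group none of these differences can be set against a replicate spread.

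Of the 10 FGF19 peaks, 3 overlapped a vehicle peak, a share of 30.0%, against 21.8% of the whole FGF19 list. All 3 vehicle peaks overlapped an FGF19 peak, against 45.5% of the vehicle list. With FGF19 the medians of the member peaks were near those of the list, while single peaks ranged widely. The median fold enrichment was 4.35 (range 3.47 to 6.04), where the list median was 4.05, and the median pileup was 22 tags (range 15 to 41), where the list median was 24 and its quartiles 20 and 29. With vehicle the fold enrichments were 3.18, 5.88 and 5.99, all outside the list quartiles of 3.52 and 5.02. Keeping only as many FGF19 peaks as the vehicle list holds, 1508 in order of q-value, left 4 member peaks, namely those of Ugt1a, the last exon of Ugt2b1 and both of Ces3a. The peaks of Ugt2a3, Ugt2b5, Ugt2b34, Sult6b1 and the first exon of Ugt2b1 were not among them, and the one of Ugt2a3 ranked 1529.

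**Figure D3:**
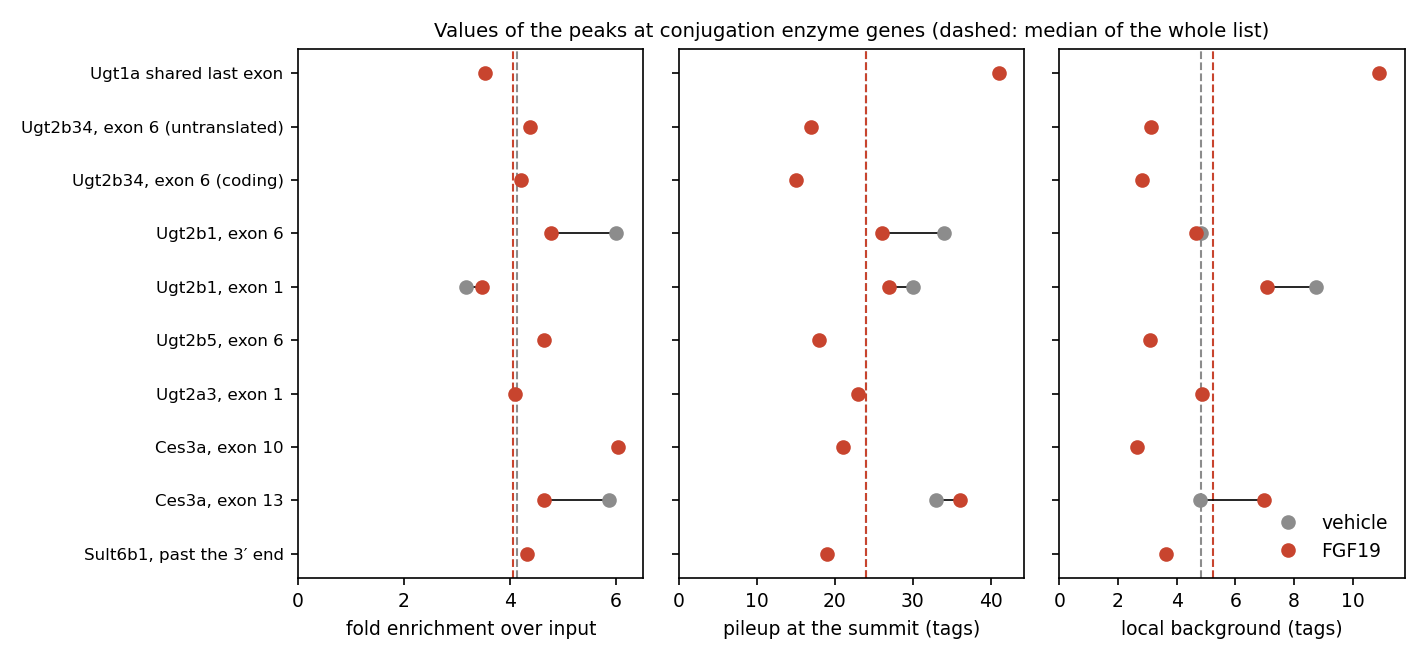
Fold enrichment, pileup at the summit in tags, and local background in tags of each member peak, with vehicle in grey and FGF19 in red, and a line joining peaks that overlap. Dashed lines are the medians of the whole lists. The Ugt1a peak had the highest pileup (41) and the highest background (10.9) with a fold enrichment of 3.53, and exon 10 of Ces3a had the highest fold enrichment (6.04) from a pileup of 21.

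The member peaks followed the exons of their genes. With vehicle all 3 summits lay in exons, and with FGF19 all 10 did, 5 in coding sequence and 5 in untranslated exon, including the one in Eif2ak2. No summit lay in an intron, although exons made up only 12.2% to 31.6% of the transcript span of the UGT genes and Ces3a. In the whole lists 15.4% of vehicle summits and 17.1% of FGF19 summits lay in introns. Last exons held 2 of 3 vehicle summits and 6 of 10 FGF19 summits, against 12.5% and 6.72% of the whole lists. Conversely, 1 of 3 and 4 of 10 summits lay within 1 kb of an annotated TSS, against 72.7% and 81.8%. Whole peaks stayed within exons at 3 of 3 sites with vehicle and 8 of 10 with FGF19, against 14.9% and 10.4% of all peaks. In bases, exons made up 100% of the vehicle member peaks and 94.1% of the FGF19 member peaks, against 47.6% and 45.1% over all peaks. The UGT exons concerned were long, from 537 bp at Ugt2b5 to 1715 bp at Ugt2b34, and the last exon of Ces3a was 507 bp, so there was room for a peak inside each.

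**Figure D4:**
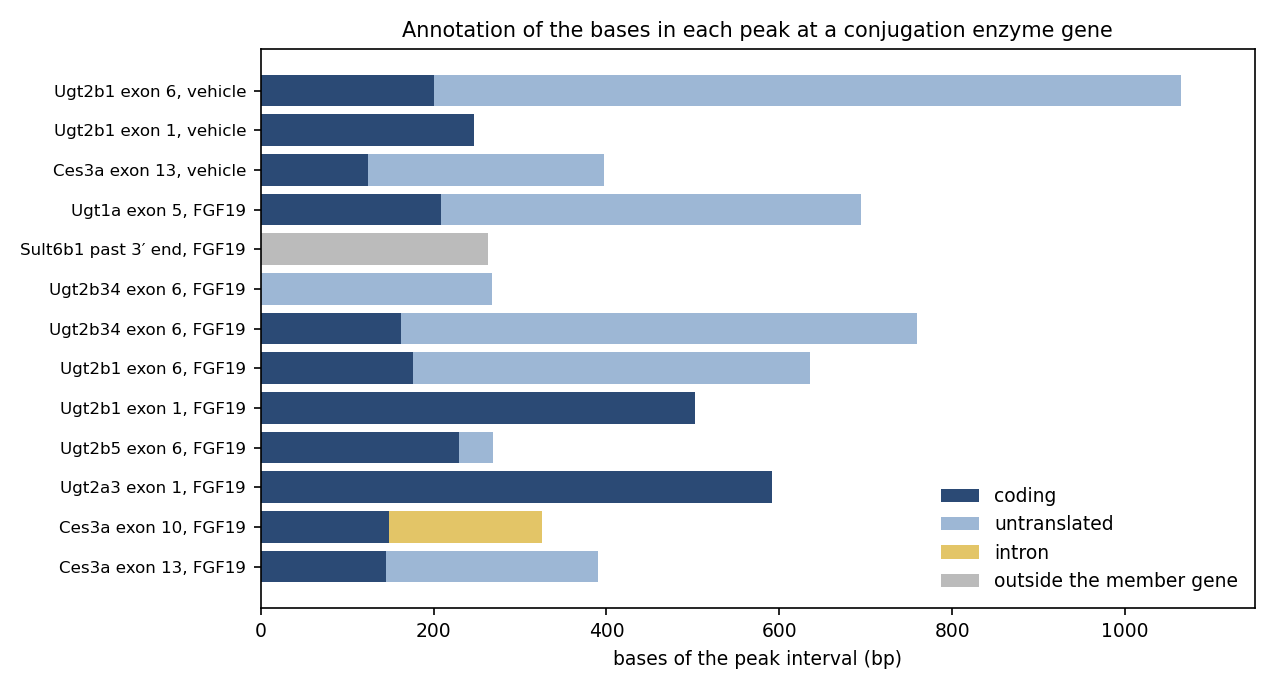
Bases of each peak interval, in bp, that are coding, untranslated, intronic or outside the member gene, for the 3 vehicle and 10 FGF19 peaks. Only the exon 10 peak of Ces3a holds intron (178 bp), and only the peak past the 3′ end of Sult6b1 lies outside its gene.

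The sequence of these peaks was poorer in GC and CpG than that of most peaks in the lists. Their GC content was 35.2% to 47.4% with vehicle, where the quartiles of the list were 54.9% and 69.6%. With FGF19 the median was 43.4% (range 36.6 to 54.8), where the quartiles of the list were 62.2% and 72.6%. Within 100 bp of the summit the FGF19 member peaks held a median of 1 CpG, against 20 in the list, and 2 of 10 held none, against 30 of 3155. Exact matches to short consensus sequences were counted on both strands in the same windows. The SP1 sequence CCCCGCCCC, the NF-Y sequence ATTGGC, the YY1 core AANATGGC and the AHR core GCGTG were in 0 of 3 and 0 of 10 member peaks. In the lists they were in 13.1%, 11.2%, 9.75% and 36.5% of vehicle peaks and in 14.8%, 11.1%, 7.54% and 43.8% of FGF19 peaks. The liver factor sequences GTTAAT (HNF1), TTGCGCAA (C/EBP) and CAAAGTCCA (HNF4) were in none of the member peaks and in at most 2.25% of either list. The nuclear receptor element AGGTCA was in 1 of 3 vehicle peaks, at the first exon of Ugt2b1, and in 1 of 10 FGF19 peaks, at Ugt2b34. It was in 9.08% and 7.13% of the lists. The related AGTTCA was in the same pair of peaks and in that of Ugt2b5, and in 6.50% and 4.82% of the lists.

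P450 genes, which carry out the oxidation step before conjugation, and glutathione S-transferase genes, which conjugate glutathione, were set beside the members under the same rule. Of 76 P450 genes (Cyp2, Cyp3 and Cyp4), 7 (9.21%) had a peak with vehicle and 6 (7.89%) with FGF19, and 6 (7.89%) were in both lists. Of 22 glutathione S-transferase genes, 7 (31.8%) had a peak with vehicle and 5 (22.7%) with FGF19, and 4 (18.2%) were in both. The shares of all genes were 7.93%, 16.3% and 4.31%. The glutathione S-transferase genes had 6 distinct peaks in each list, so some genes shared a peak with vehicle. A peak in the FGF19 list only was found at 13 members, or 4 of 49 without the Ugt1a genes, at 0 P450 genes and at 1 glutathione S-transferase gene, where the share of all genes was 12.0%. Low GC was common to all of them, with a median of 44.2% in the FGF19 peaks of P450 genes and 52.2% in those of glutathione S-transferase genes. Few CpG were common too, with a median of 2 near the summit at the FGF19 peaks of both sets. Exons made up 61.0% of the bases of the P450 peaks with FGF19 and 83.6% of those of the glutathione S-transferase peaks, against 94.1% at the members. With vehicle these were 64.9% and 66.3%, against 100% at the members. Peaks wholly within exons were 0 of 16 at P450 genes and 4 of 6 at glutathione S-transferase genes with FGF19. With vehicle they were 1 of 20 and 1 of 6. None of these differences was tested.

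Genes that supply, transport or regulate conjugation were read from a list of 37, of which 36 were in the annotation. Of these, 7 had a peak with vehicle, which is 19.4%, and 11 with FGF19, which is 30.6%, where the shares of all genes were 7.93% and 16.3%. Both lists held a peak at 5 of them, 2 had a peak with vehicle only, 6 with FGF19 only, and 23 had none. These are 13.9%, 5.56%, 16.7% and 63.9%, where the shares of all genes were 4.31%, 3.62%, 12.0% and 80.1%.

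Of the other enzymes, Ephx2, an epoxide hydrolase, had an FGF19 peak in its last exon with a fold enrichment of 5.40. Gusb, the beta-glucuronidase that removes glucuronic acid, had an FGF19 peak in its first exon with a fold enrichment of 5.13. Por, the electron donor of P450 enzymes, had a vehicle peak with a fold enrichment of 4.30, inside the gene and 2 bp from an annotated TSS.

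Of the efflux pumps, Abcc2, which exports conjugates into bile, had an intron peak in each list, with fold enrichments of 5.01 with vehicle and 4.17 with FGF19, and these peaks did not overlap. Their pileups were low, at 14 tags with vehicle and 11 with FGF19, where the median of each list was 24. Abcc4 had an FGF19 peak 176 bp from a TSS with a fold enrichment of 5.35. Of the receptors and factors that act on conjugation genes, Nr1i3, which encodes CAR, had a vehicle peak with a fold enrichment of 4.34, but this summit was 1790 bp past the gene end and 5 bp from a TSS. Nfe2l2, which encodes NRF2, had an FGF19 peak 6 bp from its TSS with a fold enrichment of 5.68. At Ppara the promoter peak had a fold enrichment of 2.91 with vehicle and 4.06 with FGF19, and a further FGF19 peak lay in an intron with 4.08. At Cebpa the fold enrichment of the overlapping peaks was 3.43 with vehicle and 5.70 with FGF19, and a further FGF19 peak had 3.01. The −log10 q-value of this further peak was only 1.43, where the list median was 5.08. At Hnf4a the last exon had a peak in both lists, with fold enrichments of 3.93 with vehicle and 3.53 with FGF19, and the vehicle list held an intron peak with 5.35. Rxra and Foxa1 had FGF19 peaks in the last exon with fold enrichments of 4.12 and 4.53.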

How the data were processed

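SHP ChIP-seq peaks of 2 pooled liver libraries, vehicle and FGF19, were used with the groups given in the labels. Per the file headers and labels, the authors mapped reads to mm9 with Bowtie 1.0.0 (up to 2 mismatches) and called peaks with MACS2 2.0.10.20130501 against the matching input, at a q-value cutoff of 0.05 with at most 1 tag per position and strand. Deposited values are the pileup signal of unscaled ChIP tags at the summit, the fold enrichment as a ratio over the local input background, and −log10 p-values and q-values. The annotation and genome were GENCODE M1 and NCBIM37, which is mm9, and 0 peaks passed a chromosome end. The background was worked out as (pileup + 1) / fold enrichment - 1. Peaks sharing at least 1 bp were common, and each common region was described by the strongest peak on each side. Peak intervals with 100 bp flanks were searched in the genome with BLAST 2.17.0. Exon positions use the transcript with the longest coding sequence. All members with a peak were named, and pathway genes only where they had one, except for a result that is not reported here. Members, lists and rules were chosen with earlier results of these data known, and the printed sequences, the exon, GC and uniqueness measures and the single Ugt1a locus were added after the values were seen. The distance, overlap and location functions gave the planted answer in 10 of 10 checks. Alternatives changed the distance, the q-value cutoff, the assignment to genes, the list size, the overlap and the measure. Tables were made in pandas 2.3.3 under Python 3.11.15, Wilson intervals with scipy 1.17.1, and genome bases were read with pyfaidx 0.9.0.4.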

Additional observations from a re-analysis of the deposited data

How the results depend on the processing

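Each group is 1 pooled library, so leaving out a replicate and a paired analysis were not possible, and counting intervals do not cover variation between mice or experiments. A summit within 1 kb of a member TSS was found for 1 member and 1 peak with vehicle and for 2 members and 2 peaks with FGF19, against 2 members and 3 peaks, and 15 members and 10 peaks, within 5 kb. Giving each peak only to the gene with the nearest protein-coding TSS left 6 members with FGF19. Counting the Ugt1a genes as 1 locus left 7 of 50 loci. Shortening the FGF19 list to the size of the vehicle list left 4 member peaks. The median log2 ratio at the common regions, -0.33 by fold enrichment, was -0.15 by pileup and turned to 0.051 by pileup scaled to the ChIP tags kept. Taking the strongest peak of each member gene gave a median fold enrichment of 3.53 with FGF19, because the Ugt1a peak then counts 9 times. With overlap of the gene body, a distance of 10 kb or a stricter q-value, there were 2 or 3 members and 3 peaks with vehicle, and 14 or 15 members and 9 or 10 peaks with FGF19. With summits at most 100 bp apart, 2 of the 3 common peaks stayed common.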
